A study of Mus musculus with 4 samples.

Results

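The Smad proteins and the Ski co-repressors form the intracellular arm of signalling by activins, myostatin, TGF-beta and bone morphogenetic proteins (BMPs), ligands of which follistatin binds and neutralises activins and myostatin. The 10 genes considered were Smad1, Smad2, Smad3, Smad4, Smad5, Smad6, Smad7, Smad9, Ski and Skil, taken as every non-control probe that carried 1 of these gene names in the array annotation. They were 10 of the 27398 gene names on the array and were read by 19 probes of 60 bases, of which 17 probes for 9 genes were bright enough to test. Both probes of Smad9 were too faint.

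RNA came from C2C12, an established mouse myoblast line whose cells leave the cycle and fuse to myotubes in low serum. Cells were grown to 80% confluence with 10% fetal bovine serum and differentiated for 6 days in horse serum, at 2% by the growth protocol but 10% by the names of the RNA sources. During differentiation, follistatin (a recombinant human form) was given at 200 ng/ml every 24 h, and control cultures were left untreated over the same days. Each of the 4 replicates, called biological by the labels, was 1 two-colour Agilent mouse array on which Cy3 marked the follistatin RNA and Cy5 the untreated RNA. The labels call the arrays dye swaps but give this orientation for all 4, so a dye effect particular to a probe adds to its ratio on every array. The orientation was taken from the labels and not tested, and an array that was in fact swapped would have its ratios reversed in sign. All values below are processed signals, which the scanner software had background-subtracted and dye-normalized, or log2 ratios of follistatin over untreated computed from them.

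Receptor-regulated Smads are phosphorylated by activated type I receptors: Smad2 and Smad3 by those of activins, myostatin and TGF-beta, and Smad1, Smad5 and Smad9 by those of BMPs. They then bind the common partner Smad4 and enter the nucleus. Smad6 and Smad7 are inhibitory Smads, induced by the pathway and acting back on its receptors, while Ski and Skil (also called SnoN) bind Smad complexes and recruit histone deacetylases, which holds target genes down. In muscle, Smad2 and Smad3 relay the growth-limiting signal of myostatin.

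What was hybridised is shown by 5 of the designed probes. They are the dimmest Ski probe, whose ratio moved most between arrays, the Skil probe that differed in sign from its partner, the single probe of the inhibitory Smad6, and both Smad9 probes, which stayed near background. Their sequences were:
Ski A_52_P165497: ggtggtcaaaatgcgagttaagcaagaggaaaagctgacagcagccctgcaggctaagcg
Skil A_52_P597461: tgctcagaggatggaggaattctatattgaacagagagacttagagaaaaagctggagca
Smad6 A_51_P427926: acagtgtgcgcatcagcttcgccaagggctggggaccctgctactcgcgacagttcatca
Smad9 A_51_P459288: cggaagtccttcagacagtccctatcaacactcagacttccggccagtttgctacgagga
Smad9 A_52_P575919: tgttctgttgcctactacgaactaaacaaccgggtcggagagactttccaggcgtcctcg

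Each is printed in lower case, 5′ to 3′, as given in the annotation of the array. By the mm9 positions of the array annotation, the Ski probe covered 154533410 to 154533469 of chromosome 4, on the minus strand, and the Skil probe 31016390 to 31016449 of chromosome 3, on the plus strand. The Smad6 probe covered 63801378 to 63801437 of chromosome 9, on the minus strand. The first Smad9 probe was mapped over 2930 bases of chromosome 3, from 54590203 to 54593132, so its 60 bases are split by a gap in the genome. The second Smad9 probe lay next to it, from 54593146 to 54593205.

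Smad6 is a known feedback target of BMP signalling. Promoter windows were found for 6 of the genes (Smad1, Smad3, Smad5, Smad6, Smad9 and Ski), 8 windows in all. Only that of Smad6 held the palindromic Smad-binding element GTCTAGAC. No window was found for Smad2, Smad4, Smad7 or Skil, so their promoters were not searched. RefSeq gives the Smad6 window in GRCm38.p6 on the minus strand at chr9:64022010-64022309, from 250 bases before to 50 after the annotated start. It is shown with the element in capitals:
Smad6 promoter: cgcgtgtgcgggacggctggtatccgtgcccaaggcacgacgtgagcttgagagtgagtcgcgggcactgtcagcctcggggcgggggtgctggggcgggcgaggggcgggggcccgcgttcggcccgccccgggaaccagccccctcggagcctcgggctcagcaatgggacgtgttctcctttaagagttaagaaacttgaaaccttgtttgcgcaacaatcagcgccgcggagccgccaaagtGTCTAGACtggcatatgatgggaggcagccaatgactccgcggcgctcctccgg

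The element is its own reverse complement, so both strands were searched at once, and it begins 4 bases before the annotated start. Of all 32851 promoter windows of this length, 0.213% held it. The letters CAGACA, searched on both strands, were found in none of the 8 windows and in 21% of all windows. The GC-rich letters GGCGCC, also a palindrome, were in the windows of Ski and Smad9 and in some windows of Smad5, against 11.9% of all windows. Those Smad5 windows overlap and hold the letters at the same site. A match describes letters, and binding was not measured.

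Across the 17 tested probes, 7 had a mean ratio above 0 and 10 below it, where 48.7% of all tested probes had a mean below 0, and none of the 17 passed the test. By limma with Benjamini-Hochberg adjustment over all 27016 tested probes, the adjusted p of the 17 ranged from 0.247 to 0.959. Over all tested probes the number that passed was 2, or 0.0074%. Those were probes of Ces3b and Olfr1299, both lower with follistatin and named after their values were seen. Among the 23574 probes well above background in either channel of every array, 0 passed (smallest limma adjusted p = 0.088). At an unadjusted p under 0.05 the count was 0 of 17 member probes, against 9.93% of all tested probes higher and 10.8% lower. The smallest limma p of the 17 was 0.053, for Smad7. That count depended on the processing. It was also 0 with each array centred on its median. With normexp background correction and loess normalization it was 4, and with the methods' t-test on separate channels 4. Of all 27016 tested probes, 5159 and 5177 were under 0.05 in those alternatives. Each of the 17 exceeded background clearly in either channel of every array. The 4 arrays were not equally alike. Across all tested probes, which are not independent, replicates 2 and 3 had ratios correlated at r = 0.82, and the other 5 pairs of arrays at 0.038 to 0.32, so an n of 4 counts as separate a pair of arrays that resemble each other. Slide 1 held replicates 1, 2 and 3, and replicate 4 was on slide 2 with a scan of its own.

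The median of the 17 mean ratios was -0.20 and that of all tested probes 0.014. The median size of the mean ratio, sign aside, was 0.34 for these probes and 0.29 for all.

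**Figure D1:**
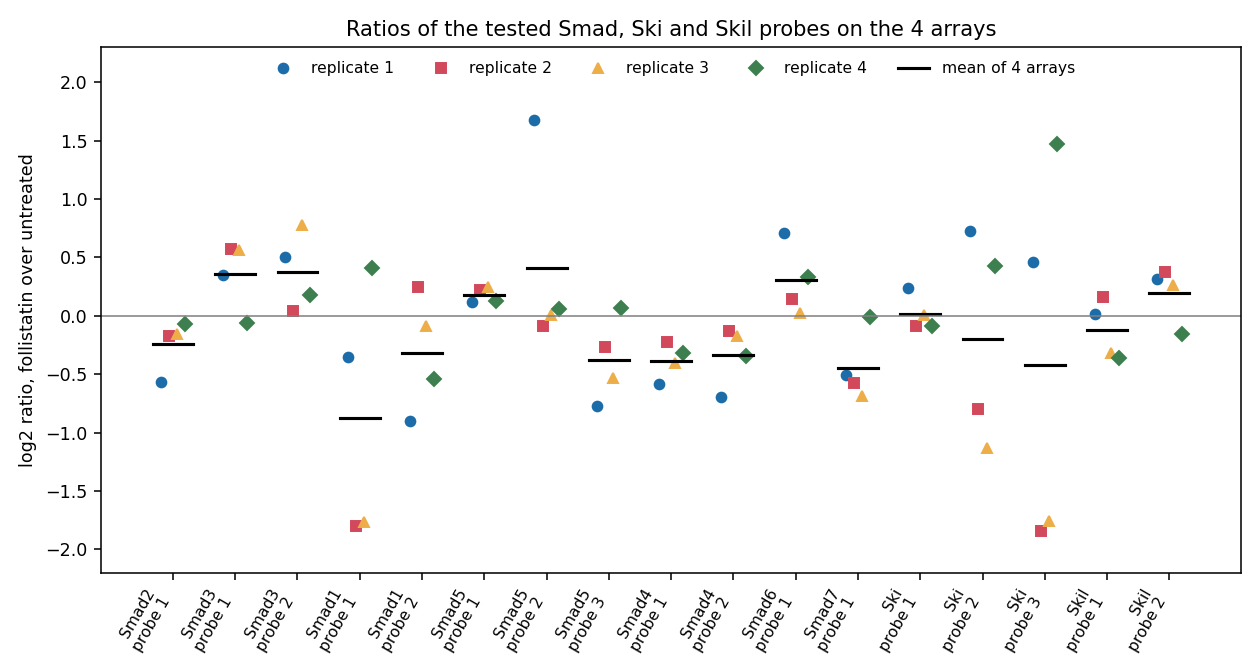
Log2 ratio of follistatin over untreated (y axis) for each tested probe (x axis, probes of a gene numbered from bright to dim). Symbols are the 4 arrays and bars their means; the Smad4 and Smad7 probes lie below 0 on all 4 arrays, while Ski probe 3 runs from -1.84 to 1.47 and Smad1 probe 1 from -1.80 to 0.41.

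Among the 17 probes 4 were lower on 4 of 4 arrays, and these 4 were the probes of Smad2, Smad4 and Smad7. Over all tested probes 14.5% were lower on 4 of 4 arrays. Another 3 were higher on 4 of 4 arrays, the Smad6 probe, the dimmer Smad3 probe and the brightest Smad5 probe, against 13.7% of all tested probes. The signals of the 2 channels did not overlap for 4 probes: both Smad4 probes and the Smad7 probe, where every follistatin signal was below every untreated one (6.76% of all tested probes), and the brightest Smad5 probe, where every follistatin signal was above (6.7% of all tested probes).

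Smad7, an inhibitory Smad, had the smallest p of the 17. Its probe A_51_P403636, on chromosome 18 from 75555371 to 75555430 in mm9, gave follistatin signals of 1503, 1472, 1208 and 1566 on replicates 1 to 4 and untreated signals of 2130, 2187, 1949 and 1572. Replicates 1, 2 and 3 were lower with follistatin, and replicate 4 was almost level. The log2 ratios were -0.50, -0.57, -0.69 and -0.0057, with a mean of -0.44 (SE 0.19, n = 4; limma adjusted p = 0.247). As a fold, follistatin over untreated was 0.736, with a 95% interval of 0.539 to 1.006. On the 3 arrays of slide 1, which leaves out replicate 4, the mean was -0.59. In RNA from a whole culture, here and below, fewer cells of a type and less RNA per cell cannot be told apart.

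Smad6, the other inhibitory Smad, had the opposite sign. Its probe gave 262.0, 270.0, 270.6 and 409.8 with follistatin and 160.1, 244.7, 266.2 and 324.6 without. Follistatin was the higher channel on each array, by least on replicate 3, and replicate 4 was the brightest in both channels. Its log2 ratios were 0.71, 0.14, 0.023 and 0.34, with a mean of 0.30 (SE 0.19, n = 4; limma adjusted p = 0.387). The Smad6 mean was 0.17 without replicate 1, and 0.16 with normexp background correction and loess normalization in place of processed signals. The fold of 1.23 had a 95% interval of 0.903 to 1.69. Set against each other within arrays, the log2 ratio of Smad6 exceeded that of Smad7 by 1.21, 0.71, 0.71 and 0.34. The mean difference was 0.75 ± 0.36 (SD, n = 4), positive on 4 of 4 arrays, and the two-sided exact sign-flip permutation test gave p = 0.125, the smallest that 4 arrays allow (adjusted p = 0.25 over 4 pairs).

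Smad4, the partner shared by both branches, had a ratio below 0 on every array with both of its probes. The bright probe A_52_P611867, on chromosome 18 from 73798705 to 73798764, read 15474, 15100, 12679 and 13442 with follistatin and 23207, 17620, 16797 and 16770 without. Every treated value was below every untreated value. Its mean log2 ratio was -0.38 (SE 0.17, n = 4; limma adjusted p = 0.256). Single arrays lay between -0.58 for replicate 1 and -0.22 for replicate 2. The fold was 0.767, with a 95% interval of 0.581 to 1.012. The dimmer probe A_51_P444740 was mapped over only 35 bases, from 73798647 to 73798681, although it is 60 bases long. It read 1207, 1245, 1365 and 1301 with follistatin against 1952, 1365, 1537 and 1651 without. Its mean was -0.34 (SE 0.18, n = 4; limma adjusted p = 0.330), and -0.22 without replicate 1. The 2 probes differed by a root mean square of 0.14 over the 4 arrays, against a median of 0.57 for the 2 brightest probes of the 6220 genes with several tested probes.

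Smad2 and Smad3, the receptor-regulated Smads downstream of follistatin's own ligands, had mean ratios of opposite sign. The Smad2 probe A_52_P397280, on chromosome 18 from 76464620 to 76464679, read 3703, 3397, 3156 and 3209 with follistatin and 5478, 3830, 3514 and 3372 without. Replicate 1 held most of the difference, and the other arrays lay close to level. The mean log2 ratio of Smad2 was -0.24 (SE 0.18, n = 4; limma adjusted p = 0.456), or -0.13 without replicate 1. The fold of 0.846 had a 95% interval of 0.633 to 1.13.

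Smad3, which is on chromosome 9, was read by a bright probe A_52_P352277, from 63495131 to 63495190, at 2357, 2686, 3121 and 2930 with follistatin and 1847, 1806, 2113 and 3050 without. Follistatin was higher on replicates 1, 2 and 3 and slightly lower on replicate 4. Its mean log2 ratio was 0.36 (SE 0.19, n = 4; limma adjusted p = 0.321), and 0.50 on slide 1 alone. The second Smad3 probe was faint, with follistatin signals of 93.9 to 143.9 and untreated signals of 79.8 to 127.4. Its mean was 0.37 (SE 0.19, n = 4; limma adjusted p = 0.317), higher on 4 of 4 arrays, but 0.24 without replicate 3 and 0.13 with normexp and loess. The Smad3 ratio exceeded the Smad2 ratio by 0.92, 0.75, 0.72 and 0.014, a mean difference of 0.60 ± 0.40 (SD, n = 4). That was positive on 4 of 4 arrays, with a two-sided exact sign-flip permutation p = 0.125 (adjusted p = 0.25 over 4 pairs).

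**Figure D2:**
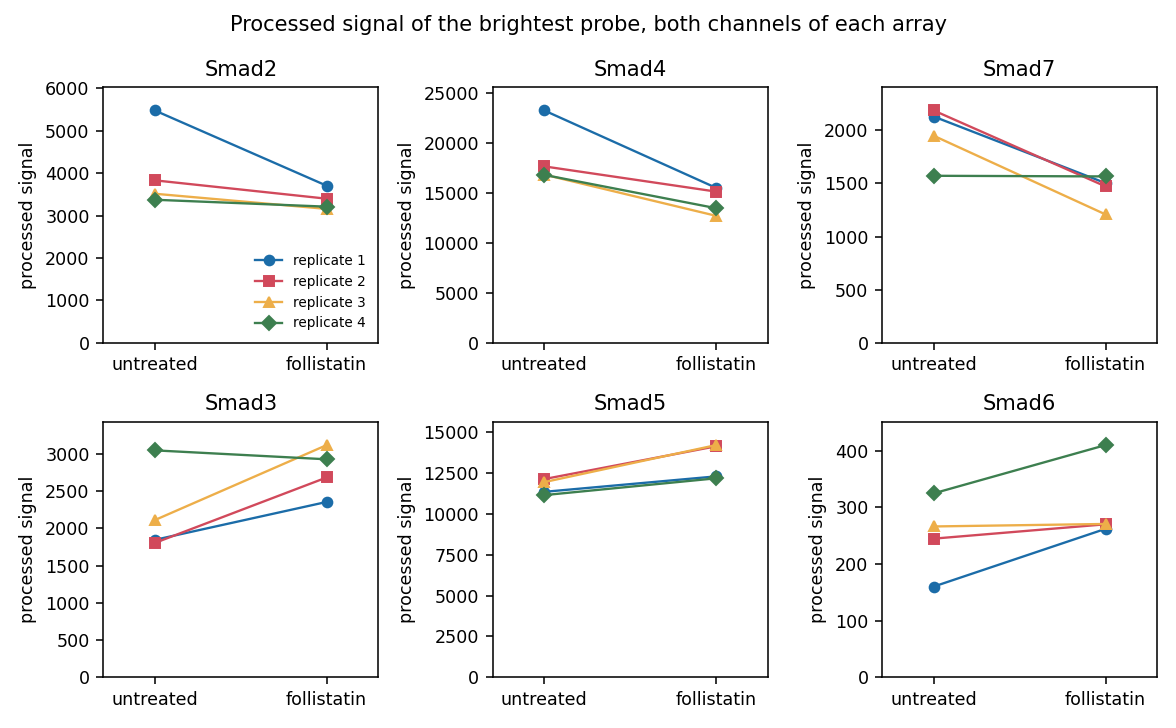
Processed signal (y axis, linear from 0) of the brightest probe of 6 genes in the untreated and the follistatin channel (x axis); each line is 1 array. Lines slope down for Smad2, Smad4 and Smad7, although the Smad7 line of replicate 4 is nearly flat (1572 to 1566), and slope up for Smad5 and Smad6 on all 4 arrays and for Smad3 on 3.

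The BMP receptor-regulated Smads differed among themselves, and for Smad1 and Smad5 also among probes. Smad5 had the steadiest probe of the set: A_51_P107599, on chromosome 13 from 56843557 to 56843616, read 12287, 14128, 14201 and 12170 with follistatin and 11342, 12123, 11937 and 11141 without. Its log2 ratios of 0.12, 0.22, 0.25 and 0.13 had a mean of 0.18 and an SD of 0.067 (n = 4). The moderated SE was 0.16, since limma draws small variances up towards those of all probes, and the limma adjusted p = 0.544, with a 95% interval of the fold from 0.867 to 1.48.

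The other Smad5 probes were far dimmer. A_51_P452207 read 302.0, 192.3, 229.1 and 612.3 with follistatin and 94.4, 204.4, 228.4 and 588.4 without. Replicate 1 alone differed, with a log2 ratio of 1.68 against -0.088 to 0.057 on the others, and without it the mean of 0.41 became -0.0089. The dimmest of them, A_52_P567359, read 180.2, 157.0, 144.0 and 168.4 with follistatin against 308.2, 189.4, 208.5 and 161.0 without. Its mean was -0.38 (SE 0.20, n = 4; limma adjusted p = 0.324), opposite in sign to the bright probe. It was -0.25 without replicate 1 and -0.16 with normexp and loess.

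Smad1 had the largest mean ratio in size, on its bright probe A_51_P409260 on chromosome 8 from 81863418 to 81863474. Follistatin signals were 6158, 2850, 2920 and 12259, and untreated signals 7859, 9954, 9936 and 9209. The untreated channel was even, whereas the treated channel was low on replicates 2 and 3 and high on replicate 4. The log2 ratios were -0.35, -1.80, -1.77 and 0.41, with a mean of -0.88 (SE 0.40, n = 4; limma adjusted p = 0.270). This mean was the only 1 of the 17 past the authors' 1.6-fold minimum, which 9.34% of all tested probes passed in the lower direction and 6.49% in the higher. With replicates 2 and 3 averaged to 1 value it was -0.57, as it was without replicate 2, and without replicate 3 it was -0.58. The second Smad1 probe, A_52_P65108, which starts at base 2268 of the transcript where the bright one starts at base 1868, read 514.9, 821.1, 656.4 and 593.4 with follistatin and 960.4, 691.9, 695.3 and 865.5 without. It was lowest on replicates 1 and 4, the arrays on which the bright probe was highest, so the probes had the same sign on 2 of 4 arrays. Their root mean square difference was 1.44. The mean of the second probe was -0.32, and it was -0.13 without replicate 1 and -0.51 without replicate 2.

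Smad9, also known as Smad8, was not measurable. The first probe was well above background in 1 of 4 arrays with follistatin and in 0 without, the second in 0 with follistatin and in 2 without. Signals lay between 3.33 and 40.1 over both probes, both channels and all arrays, so no fold is given.

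The co-repressor Ski had 3 probes that went different ways. The brightest, A_51_P518503, on chromosome 4 from 154529811 to 154529870, read 8368, 8488, 8496 and 8880 with follistatin and 7071, 9038, 8460 and 9418 without. Its ratios stayed between -0.091 and 0.24, with a mean of 0.018 (SE 0.17, n = 4; limma adjusted p = 0.959) and a 95% interval of the fold from 0.767 to 1.34. The second, A_51_P301508, which starts at base 5094 of the transcript where the brightest starts at base 3778, read 6126, 4356, 3113 and 8430 with follistatin and 3712, 7579, 6830 and 6287 without. It was higher with follistatin on replicates 1 and 4 and lower on replicates 2 and 3. The dimmest probe, printed above, read 266.8, 140.3, 142.8 and 586.3 against 194.3, 503.6, 481.6 and 211.7. Its log2 ratios were 0.46, -1.84, -1.75 and 1.47, the same order of signs.

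For those 2 Ski probes the means of -0.20 and -0.42 hide opposite arrays: without replicate 2 they were 0.0041 and 0.058, and without replicate 3 they were 0.12 and 0.028. That order of signs, replicates 2 and 3 lower with replicates 1 and 4 higher, was found in 7.06% of all tested probes. Replicates 2 and 3 are the pair of arrays that resemble each other, as given above, and replicates 1 and 4 were on different slides. What led to this order of signs was not tested.

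Skil, the second co-repressor, lay near level. Its bright probe A_51_P118132, on chromosome 3 from 31021203 to 31021262, read 3593, 5142, 3359 and 3626 with follistatin and 3544, 4585, 4191 and 4655 without. The mean was -0.12 (SE 0.18, n = 4; limma adjusted p = 0.717), with a 95% interval of the fold from 0.680 to 1.24. Leaving out 1 array moved it between -0.22, without replicate 2, and -0.045, without replicate 4, and it was -0.058 without replicate 3. The dimmer probe printed above read 194.5, 260.5, 191.0 and 227.4 against 156.3, 201.3, 159.3 and 252.8, with a mean of 0.20 (SE 0.18, n = 4; limma adjusted p = 0.543). That mean was 0.32 without replicate 4 and 0.095 with normexp and loess. Both probes had their highest ratio on replicate 2.

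**Figure D3:**
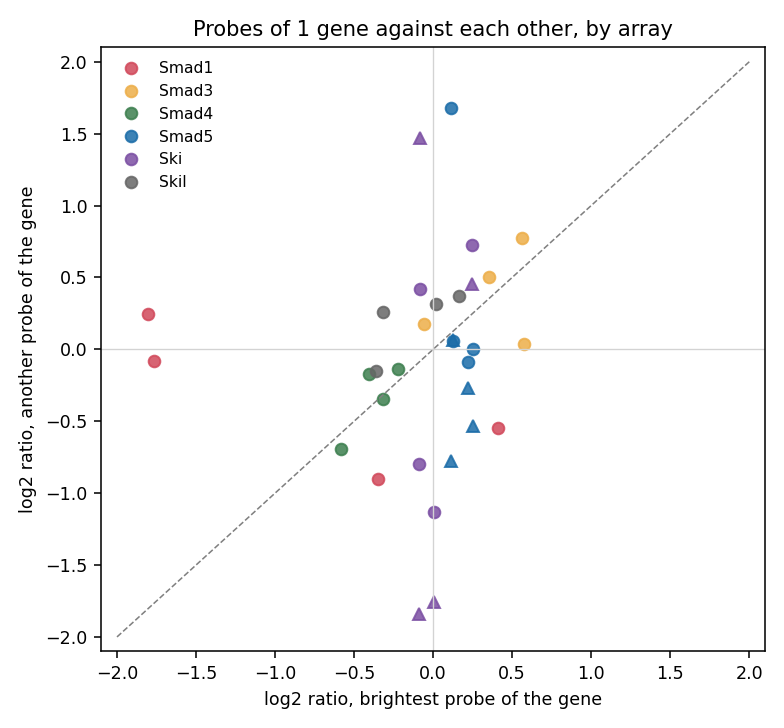
Log2 ratio of the brightest probe of a gene (x axis) against that of its second brightest (circles) or dimmest of 3 probes (triangles) on the same array; the dashed line marks equal ratios. The Smad4 points follow the line, while the Ski points run from -1.84 to 1.47 at ratios of the brightest probe between -0.091 and 0.24.

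Of the 6 genes with at least 2 tested probes, Smad3, Smad4 and Skil had 2 brightest probes closer than the median gene, at 0.32, 0.14 and 0.36, and Ski, Smad5 and Smad1 lay above it, at 0.76, 0.81 and 1.44. Among all 36 pairs of genes, by the root mean square difference of the 4 log2 ratios of their brightest probes, Smad2 and Smad4 were closest at 0.18, followed by Smad5 and Ski at 0.23. Smad1 and Smad3 were farthest at 1.72. For the remaining role pairs, the Smad5 ratio exceeded that of Smad1 by 1.06 ± 1.16 (SD, n = 4; exact sign-flip permutation p = 0.25, adjusted p = 0.333 over 4 pairs), and the Skil ratio differed from that of Ski by -0.14 ± 0.27 (SD, n = 4; exact permutation p = 0.375, adjusted p = 0.375).

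Smad2, Smad4 and Smad7 also share a stretch of chromosome 18, 2.67 Mb between their outermost probes in mm9, an interval taken after the values were seen. The other 20 tested probes in it, for 15 gene names, had a median mean ratio of 0.14, from -0.67 to 0.89. Of these 20 probes 1 was lower and 7 were higher on 4 of 4 arrays, against 14.5% and 13.7% of all tested probes. Smad3 and Smad6 lie within 0.306 Mb on chromosome 9, with 0 other tested probes of a named gene between theirs.

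Genes that act on or with the Smads were read by the brightest tested probe of each gene. Of the 17835 genes, 2 passed the test, or 0.0112%, and 0 of those in the lists that follow. At an unadjusted p under 0.05, 8.61% of all genes were higher and 10.8% lower, and the median mean ratio was -0.018. On 4 of 4 arrays 13.2% of all genes were higher and 15.9% lower. The lists were chosen with earlier results of these data known.

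Among 21 Smad anchors, adaptors and nuclear partners 14 had a ratio below 0, with a median of -0.061, and at an unadjusted p under 0.05 there were 0 higher and 2 lower. The latter were Sp1, a transcription factor that cooperates with Smads, at -0.86 (SE 0.18, limma adjusted p = 0.107) and Runx2, an osteogenic partner of Smads, at -0.57 (SE 0.21, limma adjusted p = 0.207). The endocytic adaptor Dab2 was at 0.38 and Strap, which helps Smad7 block receptors, at 0.27. Among 14 tested of 16 other co-repressors and deacetylase subunits 7 were below 0, with a median of -0.022, and 2 were higher and 2 lower at an unadjusted p under 0.05. The histone deacetylase Hdac1 was at 0.84 (SE 0.17, limma adjusted p = 0.107). Hdac4, a class II deacetylase, was at -0.58, and Skor1, a relative of Ski, at -0.55.

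The 17 ubiquitin ligases, deubiquitinases and phosphatases that turn Smads over had a median of 0.052, with 7 below 0 and 2 higher and 0 lower at an unadjusted p under 0.05. Pias4, a SUMO ligase for Smads, was at 0.95 (SE 0.23, limma adjusted p = 0.120) and Nedd4l, a ubiquitin ligase of activated Smad2 and Smad3, at 0.62. Smurf1, which directs BMP-branch Smads to degradation, was at -0.31 and Trim33, which acts on Smad4, at -0.36.

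Transcripts downstream of the Smads were mixed. Of 18 tested Smad2/3 target genes, of 19 listed, 9 were above and 9 below 0, with a median of 0.014, and 3 were higher and 0 lower at an unadjusted p under 0.05. Fibronectin, Fn1, was at 1.13 (SE 0.29, limma adjusted p = 0.129) and the collagen chain Col1a2 at 0.72. The factor Snai2 was at -0.51 and Junb at -0.32. Of 15 tested BMP target genes, of 18 listed, 10 were below 0, with a median of -0.076, and 1 was higher and 2 lower at that p. Id1, an inhibitor of myogenic factors, was at -0.77 (SE 0.28, limma adjusted p = 0.203), Runx2 is shared with the partners above, the Notch effector Hes1 was at 0.63 and the BMP antagonist Nog at 0.69.

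Upstream, 11 tested receptors of 13 listed had a median of -0.0077, with 0 at an unadjusted p under 0.05 in either direction. Acvr1, a type I receptor of activins and BMPs, was at 0.29 and Tgfbr2, the TGF-beta type II receptor, at 0.26. The activin type I receptor Acvr1b was at -0.44 and the BMP type I receptor Bmpr1a at -0.32. The 13 tested of 16 listed ligands and antagonists, among which myostatin (Mstn), Bmp2 and Bmp6 were too faint to test, had a median of -0.14, with 1 higher and 2 lower at that p: Fstl1 at 0.58, Tgfb2 at -0.71 and the activin subunit Inhba at -0.52. Gdf11, a close relative of myostatin, was at 0.39 without passing that p.

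**Figure D4:**
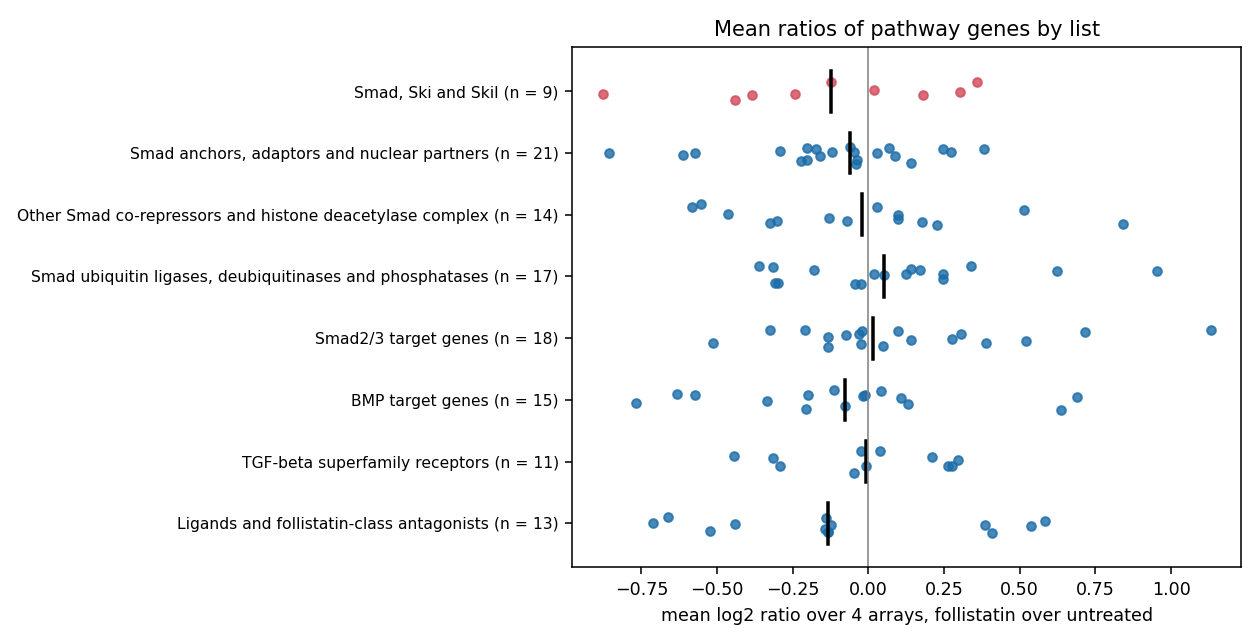
Mean log2 ratio over the 4 arrays (x axis) of each tested gene, by list (y axis, with the number of genes); vertical bars are medians. Every list spreads on both sides of 0. The red row holds the brightest probes of the 9 tested Smad and Ski genes, whose middle value is that of Skil at -0.12, and the medians of the other rows lie between -0.14 and 0.052.

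Markers of differentiated myotubes, among them Myog, Ckm, Acta1 and Myh3, check the label of the cells as differentiated for 6 days, and 10 of 10 were bright enough to test. Their summed signal was 996022 to 1450240 with follistatin and 1611682 to 1912540 without, and the ratios of 8 of 10 were below 0 (median -0.43). The arrays differed: the median ratio of these markers was 0.12 on replicate 1 and -0.58, -0.88 and -0.48 on replicates 2, 3 and 4. The sums rest most on the brightest genes, Tnnc2 and Myh8. Mean signals were 368338 with follistatin and 682196 without for Tnnc2, and 331793 and 437461 for Myh8. Fibroblast and adipocyte markers summed to 302202 to 370329 with follistatin and 230620 to 264356 without, with 5 of 6 tested above 0. Their median ratio was 0.32, 0.25, -0.10 and 0.75 on replicates 1 to 4. The sum rests most on the fibroblast markers Col3a1 (mean 189858 with follistatin and 136458 without) and Dcn (127137 and 95432). Pparg, the only adipocyte marker of the list that was tested, was the gene below 0, at -0.15. Adipoq, Fabp4, Plin1 and Thy1 were too faint to test. Myoblast and reserve cell markers summed to 107626 to 144241 against 85588 to 133121, with 5 of 7 above 0. The median ratio of these 7 was 0.60 on replicate 1 but -0.16, -0.011 and -0.22 on replicates 2, 3 and 4. Markers of other lineages summed to 2817 to 3425 against 3569 to 4417, with 1 of 4 above 0, and Pecam1, Cdh5, Ptprc and Epcam were too faint to test. The part of these shifts in the Smad ratios was not tested.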

How the data were processed

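Each sample was 1 two-colour array, quantified by the authors in Feature Extraction (Agilent). The submitters' processing notes give version 10.7.3.1, and the headers of the file for replicate 4 give 10.10.1.1. The deposited intensity values were processed signals, corrected for background and dye by that software, and median spot and background signals. The authors' deposited table of log2 ratios equalled the log2 of processed Cy3 over processed Cy5 (r = 1 over 41174 probes on each array). This shows which dye is the numerator, while only the labels say that Cy3 held the follistatin RNA. The column medians of the table were -0.16, 0.17, 0.13 and 0.11. The deposited log10 ratios run the other way, Cy5 over Cy3, and were read only for that.

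Here, control spots and spots flagged as outliers were left out (0 spots were saturated), leaving 41174 probes. To be tested, a probe had to be well above background on 3 or more of the 4 arrays in 1 channel. Ratios against 0 were tested with limma 3.58.1 in R 4.3.3 and adjusted over all 27016 tested probes, with a threshold of 0.05; tested-probe medians lay between -0.018 and 0.030. The code was checked on simulated data with independent arrays, so the check does not cover arrays that resemble each other. Probe names and positions came from the array annotation in mm9, updated for the lists through RefSeq (GRCm38.p6, names only). The members and lists were chosen with earlier results of these data known, and the text names 2 genes of smallest p per direction in each pathway list, except 1 gene that is not reported here. Alternatives were other normalization and centring, filters on dim probes, flagged spots kept, 1 probe per gene, array weights, slide, replicates 2 and 3 averaged, separate channels and leaving out each array. The number of arrays limits the precision. Nothing says that the replicates came from separate cultures beyond the word biological in the labels.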

Additional observations from a re-analysis of the deposited data

Results flagged for a closer look

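The 19 probes were examined for an array that stood apart from the other 3, by the gap to its nearest neighbour over the whole range, a rule by which chance picks about 1 group in 20. It picked 1 probe, the second Smad5 probe A_51_P452207. On replicate 1 its log2 ratio was 1.68, while the others lay between -0.088 and 0.057, so 0.918 of the range was this gap. The untreated signal there, 94.4, was the lowest of the 8 signals of this probe.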

How the results depend on the processing

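Of 15 alternatives, slide 1 alone and leaving out replicate 4 are the same fit. Some others could not turn a sign. The filters on dim probes, 1 probe per gene and the t-test on separate channels leave the mean of a member probe unchanged. Keeping flagged spots also left every member mean as it was. All of these are counted in the numbers that follow. Over the 15 alternatives the direction was kept in all results for 13 of the 17 probes, and 9 of 247 results turned sign. Those were the second Smad5 probe without replicate 1 (-0.0089, against up to 0.58 without another array), the brightest Ski probe without replicate 1 (-0.056, against up to 0.055) and with array weights (-0.026), and the other Ski probes with replicates 2 and 3 averaged (0.060 and 0.043), without replicate 2 (0.0041 and 0.058) and without replicate 3 (0.12 and 0.028), against as low as -0.50 without replicate 1 and -1.05 without replicate 4. Leaving out an array changed the data behind these means; no other cause was tested. The count of member probes called was 0 in every alternative but array weights, where it was 3 of 17: Smad1 (-1.48, adjusted p = 0.0186), Smad3 (0.50, adjusted p = 0.0429) and Smad7 (-0.56, adjusted p = 0.0321), all by limma. That fit weighted replicate 2 by 2.54, replicate 3 by 1.89, replicate 1 by 0.479 and replicate 4 by 0.433, and takes the resembling arrays as independent. It called 7939 of all 27016 tested probes, a larger share than 3 of 17, and 28 list genes. The whole-table count of 2 was 0 with normexp and loess, with the strictest background filter (either channel, every array), on slide 1 alone, with replicates 2 and 3 averaged and without each replicate in turn (0 to 0), where member probes and list genes also numbered 0 to 0. The methods' t-test on separate channels called 3 probes. The slide as a random block was added after seeing the data and called 2. The test of ratios within arrays already pairs the 2 channels. No paired analysis was possible because beyond that there is 1 group of arrays, so replicate numbers pair no samples between groups.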
